A study of Mus musculus with 6 samples.

Results

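The genes described here are 45 genes of mitosis, listed for their part in G2/M, the kinetochore, the spindle and cytokinesis, out of 31055 features counted in single cells of the mouse mammary gland. All 45 were found by symbol among the features. The 6 libraries came from female C3(1)-Tag mice, in which the C3(1) promoter drives the SV40 large T antigen, on the FVB/NJ background. Prepuberty was represented by 2 libraries of whole glands at 5 weeks, DCIS by 2 libraries of glands that held ductal carcinoma in situ at 14 weeks, and Tumor by 2 libraries of palpable tumors at more than 18 weeks. Every library carried the transgene, so no gland without it enters these comparisons. The study calls the 2 libraries of a state technical replicates in one place and specimens in another, so the p-values below measure the spread between these libraries only, which may be technical. According to the labels 1 digestion and 1 kit served every library, but the methods of the study name a separate dissociation for tumors and a later kit version for Tumor 2. If the methods hold, dissociation and the Tumor state cannot be told apart.

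A cell that enters mitosis activates CDK1 with B-type cyclins, condenses its chromosomes, attaches kinetochores to spindle microtubules and, once the spindle checkpoint is satisfied, destroys securin and cyclin B through the anaphase-promoting complex. The central spindle and the contractile ring then divide the cell. Most of these genes are transcribed together in late S phase, G2 and mitosis, and their RNA is scarce in resting cells. The large T antigen binds the retinoblastoma proteins and p53, which otherwise restrain the cell cycle.

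The shared transcription of these genes is tied to promoter letters called the CHR element, read by the DREAM and MuvB complexes, and to CCAAT boxes, read by NF-Y. In the RefSeq windows of GRCm38.p6, from 250 bases before to 50 bases after a start, 37 of the 45 genes had an entry, with 40 windows in all. TTTGAA or TTTAAA, on either strand, stood in 33 of the 40 windows (82.5%) against 27.6% of all 32851 windows. CCAAT, on either strand, stood in 30 of 40 (75%) against 37.4%, and both kinds in 28 of 40 (70%) against 10.7%. Matches of the 2 kinds can share a base, as they do in *Cdca8*. A match is a description of these letters and not a measured site. The windows of *Nusap1*, *Mad2l1*, *Nuf2*, *Pttg1* and *Mybl2* held neither kind. *Spc24*, *Foxm1*, *Ccna2*, *Tpx2*, *Cdc25c*, *Kif20a*, *Incenp* and *Aurkb* had no entry.

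The windows of the anaphase activator *Cdc20* (chr4:118437294-118437593, minus strand), the cyclin *Ccnb2* (chr9:70421505-70421804, minus strand), the kinase *Cdk1* (chr10:69352863-69353162, minus strand) and the topoisomerase *Top2a* (chr11:99024140-99024439, minus strand) are shown because these genes differ between classes and states below and hold both kinds of match. Each is written along its gene, with the matches of either strand in capitals.
Cdc20: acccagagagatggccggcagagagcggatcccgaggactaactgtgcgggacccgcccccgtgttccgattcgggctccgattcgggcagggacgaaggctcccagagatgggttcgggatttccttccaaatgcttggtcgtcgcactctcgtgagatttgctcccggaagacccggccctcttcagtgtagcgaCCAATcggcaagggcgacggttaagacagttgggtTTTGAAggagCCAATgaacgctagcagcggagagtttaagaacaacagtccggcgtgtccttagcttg
Ccnb2: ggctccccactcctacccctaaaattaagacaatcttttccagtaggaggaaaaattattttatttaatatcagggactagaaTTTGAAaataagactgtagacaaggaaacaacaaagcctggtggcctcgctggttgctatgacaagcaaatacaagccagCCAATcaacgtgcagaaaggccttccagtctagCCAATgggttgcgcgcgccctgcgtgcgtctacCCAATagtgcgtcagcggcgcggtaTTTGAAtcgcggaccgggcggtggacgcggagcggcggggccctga
Cdk1: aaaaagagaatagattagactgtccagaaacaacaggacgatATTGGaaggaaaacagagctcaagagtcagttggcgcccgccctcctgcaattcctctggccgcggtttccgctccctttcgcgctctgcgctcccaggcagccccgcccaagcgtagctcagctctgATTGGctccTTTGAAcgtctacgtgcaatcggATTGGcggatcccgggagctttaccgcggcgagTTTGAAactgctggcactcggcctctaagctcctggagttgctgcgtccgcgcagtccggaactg
Top2a: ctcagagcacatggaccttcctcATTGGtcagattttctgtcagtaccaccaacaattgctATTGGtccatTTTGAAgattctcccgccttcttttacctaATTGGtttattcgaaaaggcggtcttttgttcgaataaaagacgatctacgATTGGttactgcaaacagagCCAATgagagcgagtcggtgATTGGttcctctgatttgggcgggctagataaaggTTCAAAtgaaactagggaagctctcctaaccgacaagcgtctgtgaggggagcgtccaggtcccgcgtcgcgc
Counted from the start, the last hexamer begins at -18 in *Cdc20*, -15 in *Cdk1* and -23 in *Top2a*, and after the start, at 5, in *Ccnb2*. The windows of the checkpoint gene *Bub3* also held both kinds, although it was not called between epithelial-like cells and any of the other 3 classes.

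After removal of poor cells and likely doublets 21537 of 23835 barcodes were kept, with 28512209 to 57143434 UMIs and a median of 6541 to 13631.5 UMIs per cell in a library. Pairs of libraries shared 9 to 39 barcodes. Cells were clustered without cell cycle genes, and clusters were named from marker genes. Class levels are counts per 1000000 UMIs (CPM), and those of single genes are also scaled by TMM. They count transcripts from their 3′ ends and are not divided by length. In such sums fewer cells in mitosis and less RNA per cell cannot be told apart. Intervals cover counting error only.

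The classes carried their own markers, but in Tumor a T-antigen UMI was also seen in many cells of the stromal-like class. Epithelial-like cells numbered 147 to 2416 per library and had a UMI of all 10 epithelial markers in every library. A T-antigen UMI was seen in 13.5% and 2.04% of them in Prepuberty, 27.8% and 17.0% in DCIS, and 73.0% and 55.1% in Tumor. Among stromal-like cells the share was at most 0.475% in the 4 glands, but 30.6% in Tumor 1 (252 cells) and 48.0% in Tumor 2 (298 cells). Among endothelial-like cells it was 5.13% and 0% in Tumor (78 and 34 cells), and among immune-like cells 4.46% and 1.33% (672 and 301 cells).

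The fibroblast marker *Pdgfra* stood at 263 to 434 CPM in stromal-like cells of the glands and at 41.3 and 189 in Tumor. The 10 epithelial markers together stood at 16.5 to 109 CPM in stromal-like cells of glands and at 768 and 247 in Tumor, with all 10 detected in both tumors. In endothelial-like cells they stood at 36.3 to 70.6 in glands and at 232 and 101 in Tumor, with 9 and 5 of the 10 detected, and *Pecam1* stood at 863 and 982. In immune-like cells they stood at 33.8 to 125 in glands and at 279 and 107 in Tumor, with 10 and 7 detected. Different clusters also made up a class in different states, since 1353 of 3500 epithelial-like Tumor cells lay in a cluster led by *Pthlh*, *Nppb* and *Aqp3* that held 106 of 2395 such DCIS cells.

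Among the 4 classes the sum of the 45 genes was highest in epithelial-like cells in each library, although in Prepuberty 2 its interval (959 to 1041) overlapped that of immune-like cells (916 to 1041). The epithelial-like sum was 2945 and 999.6 CPM in Prepuberty 1 and 2, 4557 and 3211 in DCIS, and 5759 and 8193 in Tumor. In stromal-like cells it was 549.9 and 313 in Prepuberty, 443 and 345 in DCIS, and 3498 and 4905 in Tumor. Both Tumor libraries stood above all 4 glands in each of these classes. Endothelial-like cells had 383 and 266 in Prepuberty, 321 and 292 in DCIS, and 1821 and 6241 in Tumor. Immune-like cells had 634 and 977 in Prepuberty, 854 and 580.4 in DCIS, and 1879 and 1862 in Tumor.

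**Figure D1:**
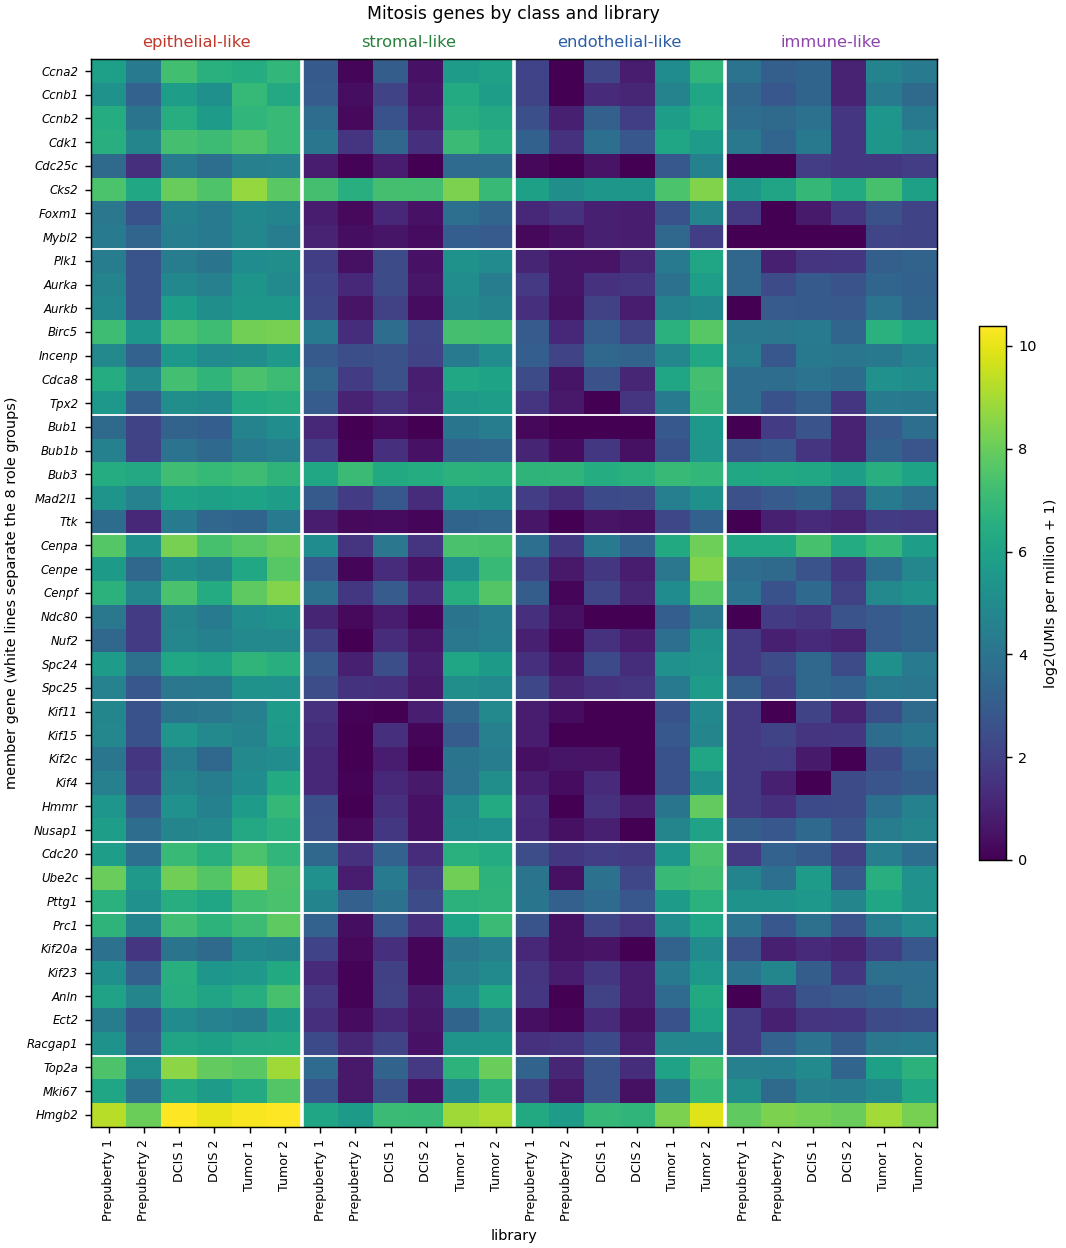
Level of each of the 45 genes (rows, grouped by role) in each class and library (columns), as log2(CPM + 1). In 44 stromal-like and 45 endothelial-like rows both Tumor columns lie above both DCIS columns, an order not counted over all genes. The exception is stromal-like *Cks2*, at 158 and 154 in DCIS and 325 and 126 in Tumor, and *Bub3* runs from 56.3 to 148 CPM over all columns.

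Compared within libraries, 43 of the 45 genes were higher in epithelial-like than in stromal-like cells, with a median log2 fold of 2.81 (edgeR quasi-likelihood test, Benjamini-Hochberg adjusted p under 0.05 over 13384 genes). Of all genes 23.4% were called higher. Against endothelial-like cells 44 of 45 were higher (median 3.35, background 24.9%), and against immune-like cells 34 of 45 (median 2.47, background 29%). *Bub3*, a checkpoint protein at unattached kinetochores, was called in none of the 3 pairs, with log2 folds of 0.12 ± 0.17 (adjusted p = 0.607), 0.17 ± 0.17 (adjusted p = 0.445) and 0.22 ± 0.18 (adjusted p = 0.313). *Cks2*, a small partner of cyclin-dependent kinases, had 0.14 ± 0.35 (adjusted p = 0.781) against stromal-like cells and was higher than in endothelial-like cells, at 1.24 ± 0.37 (adjusted p = 0.0102).

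The size of the epithelial excess varied among the genes. *Anln*, the anillin of the contractile ring, was higher than in stromal-like, endothelial-like and immune-like cells by log2 folds of 3.90 ± 0.71 (adjusted p = 0.000174), 4.54 ± 0.75 (adjusted p = 5.77e-05) and 4.13 ± 0.84 (adjusted p = 0.000405). *Top2a*, which untangles sister chromatids, was higher by 3.77 ± 0.75 (adjusted p = 0.000389), 4.57 ± 0.77 (adjusted p = 6.73e-05) and 2.58 ± 0.74 (adjusted p = 0.00655). *Mybl2*, which encodes the transcription factor B-MYB, was higher by 3.68 ± 0.53 (adjusted p = 1.28e-05), 4.12 ± 0.60 (adjusted p = 1.35e-05) and 4.23 ± 0.69 (adjusted p = 4.25e-05). Against immune-like cells *Cenpa*, the centromeric histone, had 0.21 ± 0.71 (adjusted p = 0.837) and *Mki67*, which coats mitotic chromosomes, 0.94 ± 0.60 (adjusted p = 0.202).

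Between the other classes the counts over all 6 libraries were low, and those of the glands were higher for the immune-like pairs. Over all libraries immune-like cells were higher than stromal-like cells in *Cenpa*, *Mki67*, *Hmgb2*, *Pttg1* and *Incenp* (5 of 45, background 20.6%) and higher than endothelial-like cells in *Cenpa*, *Mki67*, *Top2a*, *Pttg1* and *Hmgb2* (5 of 45, background 21.1%). Stromal-like cells were higher than endothelial-like cells in *Cks2* (1 of 45, background 20%), at 1.10 ± 0.38 (adjusted p = 0.0264). The count against stromal-like cells was 3 and 1 without Prepuberty 1 and 2 and 2 without either DCIS library, that against endothelial-like cells was 3 without Prepuberty 2 and 17 without Tumor 2, and the last was 2 without Tumor 2 and 0 without any other single library. Glands and tumors gave different counts. In the 4 glands alone 43, 44 and 34 genes were higher in epithelial-like than in stromal-like, endothelial-like and immune-like cells, with medians of 4.02, 4.72 and 2.31 and backgrounds of 26.9%, 26.4% and 27.5% of 13012 genes. In the Tumor libraries alone the counts were 1, 7 and 30, with medians of 0.69, 0.97 and 1.63 and backgrounds of 3.76%, 6.48% and 15.3% of 12500 genes. Immune-like cells were higher than stromal-like cells in 23 genes in glands (background 20.9%) and lower in 10 in Tumor (background 12.1%). They were higher than endothelial-like cells in 34 genes in glands (background 21.3%), and in Tumor edgeR called 0 for this pair (background 16.4%), with 9 at an unadjusted p under 0.05, against 31.4% of all genes. Over all libraries DESeq2 called 13 for it (background 22.5%). Stromal-like cells were higher than endothelial-like cells in 2 genes in glands (background 22.8%) and 2 in Tumor (background 3.38%).

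**Figure D2:**
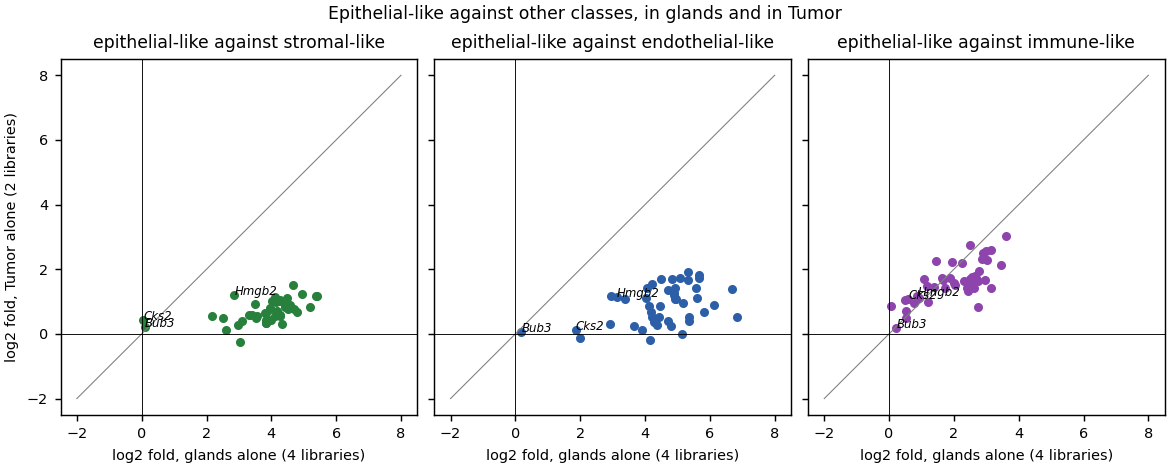
Log2 fold of the 45 genes between epithelial-like cells and each other class, in the 4 glands (horizontal axis) and in the 2 Tumor libraries (vertical axis). A gene with no gland UMI in the other class is not drawn, as *Mybl2* against immune-like cells. Against stromal-like and endothelial-like cells the medians are 4.02 and 4.72 in glands and 0.69 and 0.97 in Tumor, and against immune-like cells 2.31 and 1.63.

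In epithelial-like cells none of the 45 genes passed the threshold between states in edgeR with its filter on low counts. For DCIS against Prepuberty 0 of 45 were called, against 0% of all 13376 genes, and the median log2 fold was 0.86. At an unadjusted p under 0.05 stood 8 of the 45, against 12.9% of all genes. For Tumor against DCIS 0 of 45 were called (median 0.55, background 1.05%), and 4 had an unadjusted p under 0.05, against 23.8% of all genes. For Tumor against Prepuberty 0 of 45 were called (median 1.41, background 6.35%), and 26 had an unadjusted p under 0.05, against 28.6% of all genes. DESeq2 called 1, 2 and 11 of the 45 higher in these contrasts, with backgrounds of 1.64%, 4.92% and 8.39%. Without the filter on low counts edgeR called 9, 11 and 38 higher, with backgrounds of 2.39%, 4.65% and 7.46% of 21038 genes. Without Tumor 1 the edgeR counts for Tumor against DCIS and against Prepuberty were 1 and 3, and without Tumor 2 the latter was 1. In 39 of the 45 both Tumor libraries stood above both Prepuberty libraries, and in 26 above both DCIS libraries. The share of all genes with such an order was not counted, so these 2 counts cannot be set against a background. The smallest adjusted p for Tumor against Prepuberty was that of *Nuf2*, a kinetochore subunit, at 2.05 ± 0.51 (adjusted p = 0.0577), with 10.1 and 2.56 in Prepuberty, 27.2 and 22.9 in DCIS, and 29 and 28.9 in Tumor.

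In stromal-like cells 29 of 45 genes rose from DCIS to Tumor (median log2 fold 4.57, background 7.53% of 12254 genes) and 20 of 45 rose from Prepuberty to Tumor (median 3.99, background 5.09%). Some members passed the filter on low counts only through Tumor, such as *Ttk*, with 14, 3, 1 and 1 UMIs in the glands and 32 and 83 in the tumors. These counts are therefore a description of the genes admitted. Between DCIS and Prepuberty 0 of 45 were called by edgeR or by DESeq2, against 0% of all genes in edgeR, and 2 had an unadjusted p under 0.05 there, against 10.1% of all genes. In 44 of the 45 both Tumor libraries stood above both DCIS libraries, an order not counted over all genes. The count of 29 was 1 without DCIS 1, 0 without DCIS 2 and 2 without Tumor 2, and that of 20 was 0 without Prepuberty 2, 12 without DCIS 1, 10 without DCIS 2, 11 without Tumor 1 and 1 without Tumor 2. For Tumor against DCIS it was 14 among cells without a T-antigen UMI, 4 among cells in which stromal markers outweighed those of each other class, 2 with both limits, 4 without doublet removal and 0 without integration. For Tumor against Prepuberty the same limits gave 6, 0, 0, 2 and 0, and 43 genes were called without the filter on low counts (background 7.52%).

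In endothelial-like cells 40 of the 43 genes tested rose from DCIS to Tumor (median log2 fold 4.50, or 4.39 with the 4 genes without a DCIS UMI at their lower bound, background 7.02% of 10462 genes). From Prepuberty to Tumor 41 of 43 rose (median 4.84, background 6.83%), and between DCIS and Prepuberty 0 of 43 were called by edgeR or by DESeq2, against 0% of all genes in edgeR, and 0 had an unadjusted p under 0.05 there, against 10.9% of all genes. *Ttk* and *Mybl2* did not pass the filter on low counts. Some members passed it only through Tumor, such as *Bub1*, which had 5 and 16 UMIs in the tumors, 1 in Prepuberty 1 and none in the other 3 glands, so the count is a description of the genes admitted. Without the filter 42 of 45 were called (background 6.06%). In each of the 45 both Tumor libraries stood above both DCIS libraries, an order not counted over all genes. The count of 40 was 14 without DCIS 1, 10 without DCIS 2 and 10 without Tumor 2, and that of 41 was 16 without Tumor 2. It was 38 of 42 tested among cells without a T-antigen UMI, 29 of 40 among cells in which endothelial markers were highest, 28 of 39 with both limits, and 12 of 13 in library sums thinned to the smallest sum.

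In immune-like cells *Birc5* was the 1 gene of 36 tested that rose from DCIS to Tumor (median 1.41, background 0.418% of 8614 genes) and from Prepuberty to Tumor (median 1.37, background 0.557%). Between DCIS and Prepuberty 0 of 36 were called by edgeR or by DESeq2, against 0.0464% of all genes in edgeR, and 1 had an unadjusted p under 0.05 there, against 9.67% of all genes. In 39 of the 45 both Tumor libraries stood above both DCIS libraries, an order not counted over all genes. Without any one of DCIS 1, DCIS 2, Tumor 1 and Tumor 2 the count for Tumor against DCIS was 0, without either Prepuberty library it was 3, and for Tumor against Prepuberty it was 0 without any one library. Without the filter on low counts 11 and 7 of the 45 were called, with backgrounds of 3.74% and 2.13%. Among macrophage-like cells alone 6 and 5 of 32 genes tested were called, with backgrounds of 2.47% and 1.88% of 7819 genes.

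**Figure D3:**
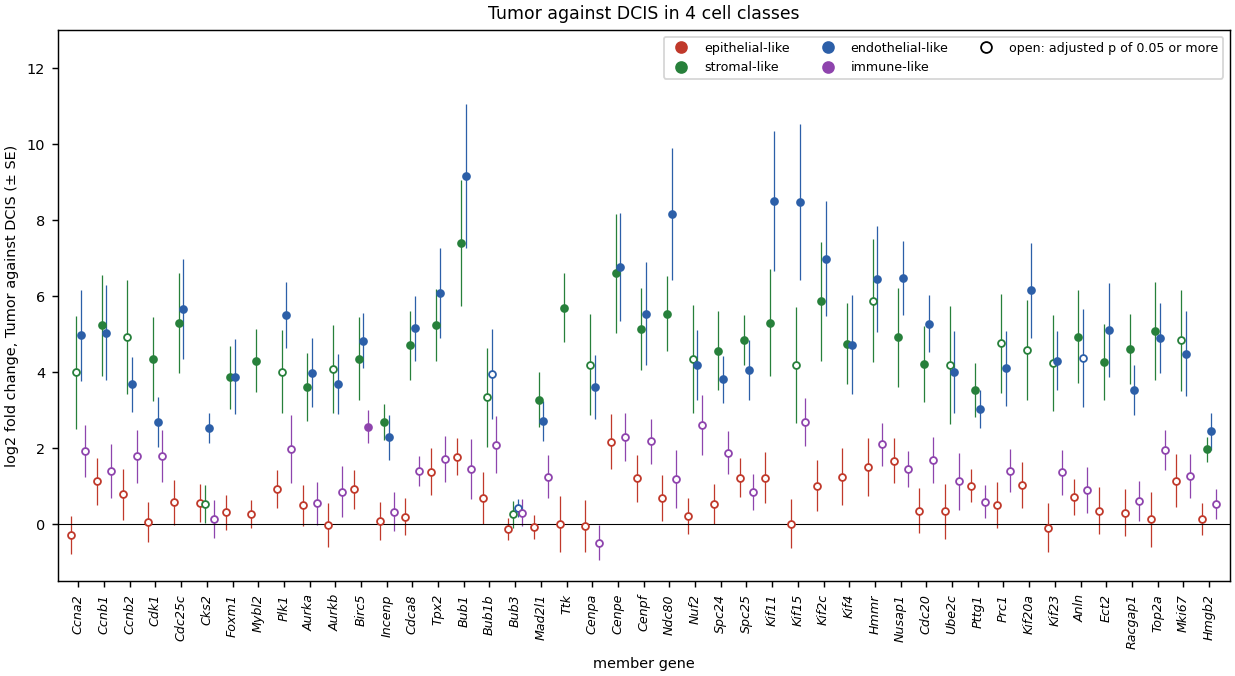
Log2 fold change of each tested gene from DCIS to Tumor, with its SE, in 4 classes, with filled points for an adjusted p under 0.05 (edgeR, 2 libraries a state). The 29 stromal-like and 40 endothelial-like calls lie above most epithelial-like and immune-like points, and the 4 points of *Bub3* are open. The endothelial-like values of *Bub1*, *Kif11*, *Kif15* and *Ndc80*, which had no UMI in DCIS, depend on the prior count.

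Cyclins and CDK1 drive entry into mitosis. *Cdk1* stood at 90.5 and 25.2 in Prepuberty, 160.1 and 139.7 in DCIS, and 182 and 129.9 in Tumor in epithelial-like cells, where the DCIS and Tumor libraries overlapped and the log2 difference was 0.06 ± 0.53 (adjusted p = 0.961). In endothelial-like cells it stood at 8.26 and 1.8 in Prepuberty, 12.9 and 5.98 in DCIS, and 68.7 and 50.7 in Tumor, and rose from DCIS to Tumor by 2.71 ± 0.66 (adjusted p = 0.0316). In stromal-like cells it rose by 4.35 ± 1.10 (adjusted p = 0.0424). *Ccnb1*, cyclin B1, stood at 55.3 and 35.9 in epithelial-like cells of DCIS and 123 and 77.2 in Tumor, without overlap but with a difference of 1.14 ± 0.61 (adjusted p = 0.298). It rose by 5.05 ± 1.24 (adjusted p = 0.0322) in endothelial-like and 5.24 ± 1.33 (adjusted p = 0.0425) in stromal-like cells.

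*Ccnb2*, cyclin B2, went from 8.01 and 2.79 to 56 and 84.5 in endothelial-like cells, a rise of 3.68 ± 0.72 (adjusted p = 0.0144), and had 4.93 ± 1.51 (adjusted p = 0.0687) in stromal-like cells. *Ccna2*, cyclin A2, which acts in S phase and at mitotic entry, had the lowest epithelial fold of the 45, at 148 and 95.5 in DCIS and 86 and 116 in Tumor (-0.27 ± 0.50, adjusted p = 0.773). It rose by 4.97 ± 1.19 (adjusted p = 0.0296) in endothelial-like cells and had 4.0 ± 1.49 (adjusted p = 0.109) in stromal-like cells. *Cks2* was high in all classes and rose in endothelial-like cells, from 44 and 44.2 to 176 and 343 (2.54 ± 0.40, adjusted p = 0.00696). *Cdc25c*, the phosphatase that activates CDK1, had 3 UMIs in stromal-like cells of DCIS and 136 in Tumor, a ratio of levels of 74.4 (95% interval 24.9 to 365), and in endothelial-like cells 1 and 13, a ratio of 68.1 (95% interval 10.2 to 2893).

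Of the transcription factors, *Foxm1* rose by 3.87 ± 0.84 (adjusted p = 0.0277) in stromal-like and 3.88 ± 0.99 (adjusted p = 0.0355) in endothelial-like cells, and *Mybl2* rose by 4.31 ± 0.83 (adjusted p = 0.021) in stromal-like cells. In immune-like cells *Mybl2* had no UMI in any of the 4 glands and stood at 3.44 and 3.43 in Tumor, at least 4.05-fold above a floor of 3 UMIs over the DCIS libraries. Their epithelial differences were 0.32 ± 0.46 (adjusted p = 0.7) and 0.27 ± 0.37 (adjusted p = 0.694).

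The mitotic kinases and the chromosomal passenger complex correct attachments and steer mitotic exit. *Birc5*, survivin, the passenger subunit at the centromere, was called in stromal-like, endothelial-like and immune-like cells. In immune-like cells it stood at 17.1 and 16.3 in Prepuberty, 18 and 9.56 in DCIS, and 98.9 and 68.3 in Tumor, both tumors above all 4 glands, a rise from DCIS of 2.57 ± 0.43 (adjusted p = 0.0329). In endothelial-like cells it went from 7.12 and 3.19 to 98 and 203 (4.84 ± 0.74, adjusted p = 0.00637), and in stromal-like cells from 12 and 3.5 to 159 and 150.4 (4.36 ± 1.10, adjusted p = 0.0416). In epithelial-like cells it stood at 144 and 43.2 in Prepuberty, 174 and 140.2 in DCIS, and 289 and 307 in Tumor, with 0.92 ± 0.51 (adjusted p = 0.309) from DCIS to Tumor.

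The other passenger subunits were called in endothelial-like cells, and 2 of them in stromal-like cells too. *Cdca8*, borealin, went from 4.89 and 1.2 to 68.7 and 155 in endothelial-like cells (5.16 ± 0.86, adjusted p = 0.00822) and rose by 4.71 ± 0.91 (adjusted p = 0.0214) in stromal-like cells. *Incenp*, the scaffold of the complex, rose by 2.29 ± 0.58 (adjusted p = 0.0355) in endothelial-like and 2.70 ± 0.47 (adjusted p = 0.0167) in stromal-like cells. *Aurkb*, its kinase, rose by 3.69 ± 0.78 (adjusted p = 0.0197) in endothelial-like cells and had 4.09 ± 1.15 (adjusted p = 0.0557) in stromal-like cells.

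*Aurka*, the kinase of the spindle poles, rose by 3.99 ± 0.90 (adjusted p = 0.0246) in endothelial-like and 3.62 ± 0.89 (adjusted p = 0.0395) in stromal-like cells, and its activator *Tpx2* by 6.09 ± 1.19 (adjusted p = 0.0144) and 5.24 ± 0.95 (adjusted p = 0.0185). *Plk1*, polo-like kinase 1, rose by 5.51 ± 0.87 (adjusted p = 0.007) in endothelial-like cells, from 0.445 and 1.2 to 19.1 and 67.6, and had 4.02 ± 1.09 (adjusted p = 0.0508) in stromal-like cells. None of the 7 genes of this group was called in epithelial-like cells, where their median was 0.50.

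The spindle checkpoint holds back anaphase until each kinetochore is attached, and its genes moved unevenly. *Bub3* stood at 85.5 and 75.7 in Prepuberty, 148 and 124 in DCIS, and 143 and 108 in Tumor in epithelial-like cells and at 107 and 110.3 in Prepuberty, 85.9 and 96.4 in DCIS, and 128 and 115 in Tumor in endothelial-like cells. It was called in no class and no contrast, and from DCIS to Tumor it had -0.11 ± 0.28 (adjusted p = 0.84), 0.26 ± 0.36 (adjusted p = 0.645), 0.43 ± 0.24 (adjusted p = 0.259) and 0.31 ± 0.35 (adjusted p = 0.628) in epithelial-like, stromal-like, endothelial-like and immune-like cells. *Bub1*, the kinase that recruits other checkpoint proteins, stood at 11.2 and 3.42 in Prepuberty, 8.89 and 7.57 in DCIS, and 23.9 and 32.8 in Tumor in epithelial-like cells, with 1.78 ± 0.49 (adjusted p = 0.096) from DCIS to Tumor, the smallest adjusted p of the 45 in that contrast. In endothelial-like cells it had no UMI in DCIS and stood at 6.36 and 45 in Tumor, at least 36.7-fold above a floor of 3 UMIs. In stromal-like cells it had 1 UMI in DCIS and 208 in Tumor, a ratio of levels of 341 (95% interval 60.6 to 13552).

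*Ttk*, the MPS1 kinase that starts checkpoint signalling, had 2 UMIs in stromal-like cells of DCIS and 115 in Tumor, a ratio of 94.4 (95% interval 25.5 to 789), and was called there (adjusted p = 0.0133). In epithelial-like cells it stood at 17.8 and 9.9 in DCIS and 9.09 and 18.7 in Tumor, which overlap. *Mad2l1*, which holds CDC20 inactive, rose by 3.28 ± 0.73 (adjusted p = 0.0299) in stromal-like and 2.72 ± 0.53 (adjusted p = 0.0142) in endothelial-like cells. *Bub1b*, which encodes BUBR1, was called from DCIS to Tumor in no class, with 0.70 ± 0.68 (adjusted p = 0.561), 3.34 ± 1.30 (adjusted p = 0.121), 3.95 ± 1.19 (adjusted p = 0.0612) and 2.10 ± 0.74 (adjusted p = 0.139) in the same order of classes, and rose from Prepuberty to Tumor in endothelial-like cells (4.94 ± 1.14, adjusted p = 0.0265).

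Kinetochore genes link the chromosomes to the spindle. *Cenpf*, a large outer kinetochore protein, stood at 99.8 and 26.9 in Prepuberty, 167 and 82.6 in DCIS, and 226 and 351 in Tumor in epithelial-like cells (1.21 ± 0.62, adjusted p = 0.275 from DCIS to Tumor). In endothelial-like cells it went from 3.56 and 1.2 to 31.8 and 206 (5.54 ± 1.36, adjusted p = 0.0321), and in stromal-like cells from 6.84 and 1.48 to 86.7 and 192 (5.14 ± 1.07, adjusted p = 0.0255). *Cenpe*, the kinesin that brings chromosomes to the equator, went from 2.22 and 0.797 to 16.5 and 338 in endothelial-like cells (6.77 ± 1.43, adjusted p = 0.0193), so that Tumor 2 lay far above Tumor 1, and rose by 6.61 ± 1.56 (adjusted p = 0.035) in stromal-like cells. *Cenpa* was high in immune-like cells of all states, at 73.4 and 71.3 in Prepuberty, 164 and 81.8 in DCIS, and 119.8 and 55.7 in Tumor (-0.48 ± 0.47, adjusted p = 0.567 from DCIS to Tumor), and rose in endothelial-like cells by 3.62 ± 0.83 (adjusted p = 0.0264).

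The NDC80 complex couples kinetochores to microtubules. *Ndc80* had no UMI in endothelial-like cells of DCIS and stood at 7.63 and 16.9 in Tumor, at least 20.9-fold above a floor of 3 UMIs, and rose by 5.55 ± 0.99 (adjusted p = 0.0175) in stromal-like cells. *Spc25* went from 1.71 and 0.673 to 34.3 and 30.3 in stromal-like cells (4.85 ± 0.65, adjusted p = 0.0106) and rose by 4.07 ± 0.79 (adjusted p = 0.0141) in endothelial-like cells. *Spc24* rose by 4.57 ± 1.05 (adjusted p = 0.0324) and 3.82 ± 0.61 (adjusted p = 0.00738) in these classes, and *Nuf2* by 4.19 ± 0.92 (adjusted p = 0.0225) in endothelial-like cells, with 4.36 ± 1.42 (adjusted p = 0.0796) in stromal-like cells.

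Kinesins and microtubule binding proteins shape the spindle. *Kif11*, which pushes the poles apart, had 14 UMIs in endothelial-like cells of Tumor and none in DCIS, at least 24.4-fold above a floor of 3 UMIs, and *Kif15*, a motor that backs it up, had the same counts. In stromal-like cells *Kif11* went from 0 and 0.807 to 9.91 and 29 (5.31 ± 1.40, adjusted p = 0.0473) and *Kif15* had 4.20 ± 1.53 (adjusted p = 0.104). *Hmmr*, a protein of the spindle poles, stood at 1.78 and 0.797 in endothelial-like cells of DCIS and 15.3 and 234 in Tumor (6.46 ± 1.40, adjusted p = 0.0213), again with Tumor 2 far above Tumor 1, and had 5.89 ± 1.62 (adjusted p = 0.0522) in stromal-like cells.

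*Nusap1*, which bundles spindle microtubules, had 2 UMIs in endothelial-like cells of DCIS and 42 in Tumor, a ratio of levels of 110.0 (95% interval 28.6 to 938), and rose by 4.93 ± 1.30 (adjusted p = 0.0475) in stromal-like cells. *Kif2c*, which shortens microtubules at centromeres, had 3 and 207 UMIs in stromal-like cells, a ratio of 113 (95% interval 38.2 to 554), and 1 and 28 in endothelial-like cells, a ratio of 147 (95% interval 24.2 to 5995). *Kif4*, a kinesin of chromosome arms and the central spindle, rose by 4.76 ± 1.06 (adjusted p = 0.0302) in stromal-like cells, and in endothelial-like cells its ratio was 29.7 (95% interval 8.58 to 158).

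Of the genes that end metaphase, *Cdc20* stood at 4.49 and 2.18 in Prepuberty, 2.67 and 2.39 in DCIS, and 43.3 and 169 in Tumor in endothelial-like cells, a rise from DCIS of 5.28 ± 0.74 (adjusted p = 0.00507), the smallest adjusted p of the 43 genes. In epithelial-like cells it stood at 131 and 89.7 in DCIS and 171 and 112 in Tumor, which overlap (0.36 ± 0.59, adjusted p = 0.738), and in stromal-like cells it rose by 4.22 ± 0.99 (adjusted p = 0.0349). *Pttg1*, securin, went from 11.6 and 5.98 to 50.9 and 98.5 in endothelial-like cells (3.04 ± 0.51, adjusted p = 0.00858) and rose by 3.53 ± 0.71 (adjusted p = 0.0235) in stromal-like cells. *Ube2c*, the ubiquitin-conjugating enzyme of the anaphase-promoting complex, stood at 277 and 192 in epithelial-like cells of DCIS and on both sides of them in Tumor, at 415 and 180.1. It rose by 4.01 ± 1.09 (adjusted p = 0.0441) in endothelial-like cells and had 4.19 ± 1.55 (adjusted p = 0.108) in stromal-like cells.

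The genes of the central spindle and cytokinesis rose from DCIS to Tumor in 5 of 6 cases in endothelial-like cells (background 7.02%) and 3 of 6 in stromal-like cells (background 7.53%). *Prc1*, which bundles the central spindle, went from 3.56 and 1.99 to 33.1 and 67.6 in endothelial-like cells (4.11 ± 0.98, adjusted p = 0.0299) and had 4.76 ± 1.31 (adjusted p = 0.052) in stromal-like cells. *Racgap1* and *Ect2*, which turn on RhoA at the equator, rose by 3.53 ± 0.65 (adjusted p = 0.0125) and 5.11 ± 1.24 (adjusted p = 0.0312) in endothelial-like cells and by 4.62 ± 0.92 (adjusted p = 0.0228) and 4.28 ± 1.00 (adjusted p = 0.0341) in stromal-like cells. *Anln* rose by 4.94 ± 1.22 (adjusted p = 0.0399) in stromal-like cells and had 4.38 ± 1.29 (adjusted p = 0.0571) in endothelial-like cells. *Kif23*, a kinesin of the central spindle, rose by 4.31 ± 0.78 (adjusted p = 0.0111) in endothelial-like cells and had 4.25 ± 1.26 (adjusted p = 0.0629) in stromal-like cells. *Kif20a*, another, had 1 UMI in endothelial-like cells of DCIS and 18 in Tumor, a ratio of levels of 94.3 (95% interval 14.9 to 3927), and 4.59 ± 1.33 (adjusted p = 0.0596) in stromal-like cells.

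Of the chromosome structure genes, *Top2a* stood at 178 and 34.2 in Prepuberty, 386 and 239 in DCIS, and 210.1 and 477 in Tumor in epithelial-like cells, with the tumors on both sides of the DCIS libraries (0.14 ± 0.72, adjusted p = 0.927). In endothelial-like cells it stood at 8.98 and 1.15 in Prepuberty, 5.34 and 1.59 in DCIS, and 62.3 and 152 in Tumor (4.91 ± 0.93, adjusted p = 0.0136 from DCIS to Tumor), and in stromal-like cells at 11.5 and 0.644 in Prepuberty, 8.8 and 2.29 in DCIS, and 105 and 255 in Tumor (5.08 ± 1.29, adjusted p = 0.0425). *Mki67* stood at 71.8 and 52.1 in epithelial-like cells of DCIS and 79.9 and 196 in Tumor (1.16 ± 0.71, adjusted p = 0.351), rose by 4.50 ± 1.13 (adjusted p = 0.034) in endothelial-like cells and had 4.84 ± 1.32 (adjusted p = 0.0511) in stromal-like cells. *Hmgb2*, a chromatin protein, was the most abundant of the 45 in epithelial-like cells, at 614 and 264 in Prepuberty, 1302 and 1066 in DCIS, and 1255 and 1339 in Tumor, and rose by 1.97 ± 0.33 (adjusted p = 0.0146) in stromal-like and 2.46 ± 0.49 (adjusted p = 0.0155) in endothelial-like cells.

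The difference between classes was tested itself, in 1 edgeR fit over the classes with the library as a block (13936 genes). The change from DCIS to Tumor was smaller in epithelial-like than in stromal-like cells for 41 of 45 genes (median difference -4.07 on the log2 scale, background 4.99%), and smaller than in endothelial-like cells for 28 of 45 (median -3.88, background 1.98%). Against immune-like cells edgeR called 0 of 45 (background 3.65%), and 1 and 2 without Prepuberty 1 and 2. At an unadjusted p under 0.05 stood 9 of the 45, against 18.3% of all genes. For the change from Prepuberty to DCIS edgeR called 0 of 45 against stromal-like, endothelial-like and immune-like cells, with backgrounds of 0.244%, 0.0933% and 0.56%. At an unadjusted p under 0.05 stood 14, 4 and 7 of the 45, against 14.7%, 10.9% and 13.9% of all genes. Against immune-like cells the count of calls was 2 without Prepuberty 1 and 1 without either Tumor library. *Bub1b*, *Hmgb2*, *Bub3* and *Cks2* were not called against stromal-like cells. For *Top2a* the difference was -5.03 ± 0.72 (adjusted p = 0.000843) against stromal-like and -4.87 ± 0.81 (adjusted p = 0.00744) against endothelial-like cells, and for *Cdk1* it was -4.55 ± 0.63 (adjusted p = 0.000727) and -2.72 ± 0.67 (adjusted p = 0.0367). The count of 41 was 26 without DCIS 1 and 2 without DCIS 2, 33 among cells without a T-antigen UMI, 39 with own markers highest and 3 without integration. The count of 28 was 1 without DCIS 1, 0 without DCIS 2 and 3 without Tumor 2, and 13 with own markers highest.

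Counted per cell, with each cell thinned to 2000 UMIs, 5 or more of the 45 genes were detected in 34.9% and 9.71% of epithelial-like cells in Prepuberty, 44.3% and 31.5% in DCIS, and 67.3% and 64.3% in Tumor. Both Tumor values lay above all 4 glands. Among stromal-like cells the share was 3.12% and 0% in Prepuberty (0 of 1437 cells, which allows up to 0.209%), 1.01% and 0.0902% in DCIS, and 27.1% and 25.3% in Tumor. Among endothelial-like cells it was 0.704% and 0% in Prepuberty, 0.517% and 0.637% in DCIS, and 14.5% (11 of 76 cells) and 19.0% (4 of 21) in Tumor. Those 11 and 4 cells held 67.3% and 76.9% of the UMIs of the 45 genes in the thinned cells of their class. Without thinning, as in the sums tested above, 29 of 78 cells held 91.3% of these UMIs in Tumor 1 and 8 of 34 cells held 97.4% in Tumor 2. Among immune-like cells it was 1.12% and 3.21%, 4.67% and 1.19%, and 10.8% and 10.6%.

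Cells of under 2000 UMIs were left out, 393 of them epithelial-like, 282 stromal-like, 317 endothelial-like and 584 immune-like. Among cells removed as likely doublets 63.9% and 61.8% in Tumor 1 and 2 had 5 or more of the genes, against 55.6% and 50.0% of the cells kept there.

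**Figure D4:**
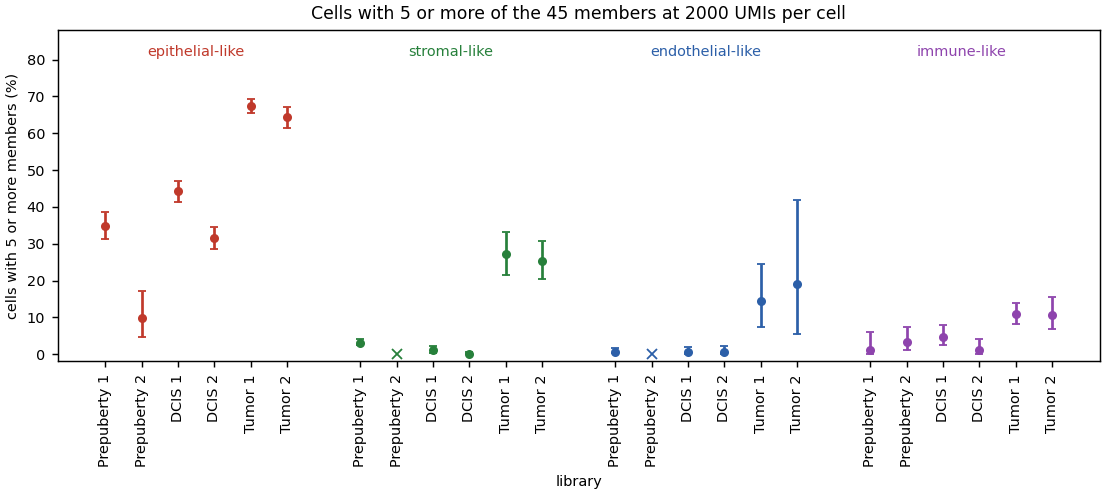
Share of cells with 5 or more of the 45 genes detected after thinning to 2000 UMIs, by class and library, with exact 95% binomial intervals as bars and crosses for shares of 0. Epithelial-like shares run from 9.71% to 67.3%, and those of the other 3 classes are at most 4.67% in glands and 10.6% to 27.1% in Tumor.

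In Tumor the stromal-like cells with 5 or more of the genes had fewer stromal markers than those with none. In Tumor 1 the 65 cells with 5 or more had a median of 2.18 stromal marker UMIs per 10000 against 307 in the 66 cells with none, and 7.63 epithelial marker UMIs against 0.929. A T-antigen UMI was seen in 39 of the 65 cells (60%) and in 8 of the 66 (12.1%). In Tumor 2 the stromal markers were at 43.4 in 73 cells against 171 in 62 cells, and a T-antigen UMI was seen in 46 (63.0%) and 20 (32.3%) of them. The epithelial markers there were at 1.04 against 0, so that in Tumor 2 the stromal markers stayed above the epithelial ones in the cells with 5 or more of the genes, whereas in Tumor 1 they lay below them. T-antigen UMIs were counted without thinning, and the cells with 5 or more were deeper. Their median was 17989 UMIs against 10676 in Tumor 1 and 23041 against 11060 in Tumor 2. In endothelial-like and immune-like cells of both tumors those with 5 or more were deeper too.

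In endothelial-like cells of Tumor 1 the endothelial markers were at 46.7 per 10000 in the 11 cells with 5 or more of the genes against 67.4 in 26 cells with none. In Tumor 2 they were at 30.4 in 4 cells against 105.6 in 2 cells, so they were lower in both tumors, over few cells. The epithelial markers were at 1.26 against 0.595 in Tumor 1 and at 1.61 against 0 in Tumor 2. A T-antigen UMI was seen in 2 of the 11 cells and in none of the 4. Immune-like cells with 5 or more had more immune markers than those with none, at 149 against 86.9 in Tumor 1 and 91.4 against 47.9 in Tumor 2, with a T-antigen UMI in 5 of 49 and 0 of 22 cells. As a share of the epithelial-like level of the same library, the endothelial-like sum of the 45 genes was 31.6% and 76.2% in Tumor 1 and 2 and that of the epithelial markers 2.69% and 1.83%. For stromal-like cells the shares were 60.7% and 59.9%, and 8.91% and 4.49%. For immune-like cells they were 32.6% and 22.7%, and 3.24% and 1.95%. The T-antigen level, on the same scale, was 29.1% and 102% in stromal-like, 12.4% and 0% in endothelial-like, and 4.30% and 4.84% in immune-like cells.

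**Figure D5:**
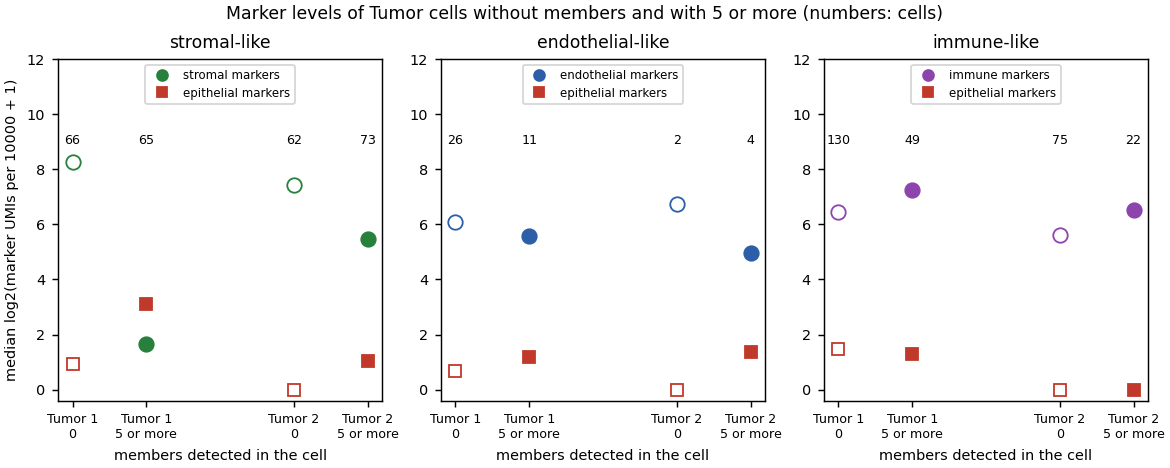
Median level of own-class markers (circles) and epithelial markers (squares) in Tumor cells with none (open) and with 5 or more (filled) of the 45 genes, as log2(UMIs per 10000 + 1), with the numbers of cells. In stromal-like cells of Tumor 1 the own markers are at 2.18 per 10000 with 5 or more genes and at 307 with none, and in immune-like cells they are higher with 5 or more.

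Within the classes the genes were unevenly spread. T or NK-like cells stood at 1163 and 2817 CPM in Prepuberty (8 and 96 cells), 3455 and 1499 in DCIS (56 and 31 cells), and 3187 and 1335 in Tumor (176 and 105 cells), so that the states overlapped. Macrophage-like cells stood at 1737 and 1985 in Tumor, above the 4 glands at 276 to 612, with 5 or more genes in 11.1% and 14.1% of cells. Of the fibroblast-like clusters, the one led by *Serpinb2*, *Thbs2* and *Ccl2* stood at 6450 and 7419 in Tumor, with a T-antigen UMI in 61.3% and 50.8% of cells, and the one led by *Crabp1*, *Col1a1* and *Mfap4* at 1772 and 2606, with 19.0% and 54.1%. The endothelial-like cluster led by *Gpihbp1* and *Cldn5* stood at 1876 and 6445 in Tumor, and that led by *Ackr1* and *Selp* at 1164 and 412 in 10 and 5 cells. The epithelial-like cluster with the hormone-sensing genes *Prlr* and *Cited1* stood at 2183 and 722 in Prepuberty, 1304 and 1333 in DCIS, and 6979 and 1544 in Tumor, in 41 and 43 Tumor cells.

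Other genes of the cell cycle were read from 2 lists. Of 104 other mitotic genes, 56 of 102 tested rose from DCIS to Tumor in stromal-like cells (median 3.39, background 7.53%) and 43 of 79 in endothelial-like cells (median 2.80, background 7.02%). In epithelial-like cells *Cdkn3*, a phosphatase that acts on cyclin-dependent kinases, was the 1 gene called (2.58 ± 0.38, background 0.329% higher), and in immune-like cells the condensin subunit *Smc2* (2.16 ± 0.38, background 0.418%). Of 78 S-phase genes, 64 rose in stromal-like cells (median 3.31, background 7.53%), and 39 of 70 tested rose and 1 fell in endothelial-like cells (median 1.88, background 7.02% higher). In immune-like cells the helicase subunit *Mcm5* was the 1 of 58 (3.11 ± 0.54). From Prepuberty to Tumor, where 3% of all genes rose in epithelial-like cells, 23 of 78 S-phase genes rose there (median 1.61), led by the cyclins *Ccne1* (2.93 ± 0.55) and *Ccne2* (2.85 ± 0.49), against 6 of 104 other mitotic genes (median 1.14) and 0 of the 45 (median 1.41). Whether the lists differed was not tested, and both were chosen with earlier results of these data known.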

How the data were processed

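Single-cell RNA was counted in 6 libraries, 2 per state. The authors deposited raw UMI counts per gene and cell made with Cell Ranger 3.0.2. The study states that the SV40 large T antigen was added to that pipeline as a vector. The mouse reference behind these counts is not given in the sources used here, although the submitters' processing notes list mm10. Cells with under 200 genes (546 barcodes), 10% or more mitochondrial UMIs (1045) or a high Scrublet score (707, at 0.8% per 1000 cells) were removed (scanpy 1.11.5). Cells were integrated and clustered with Seurat 5.3.0 on 2000 variable genes without 227 cell cycle genes, which gave 22 clusters, and a cluster was named from at least 3 markers.

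Counts were summed per library and class where at least 10 cells were present, and tested with edgeR 4.0.16 (quasi-likelihood, TMM, filter on low counts, Benjamini-Hochberg adjustment over all genes tested, threshold 0.05). Expression values of single genes are TMM-scaled CPM. A ratio of levels and its interval were computed for genes with 1 to 3 UMIs in the lower state, and a bound from a floor of 3 UMIs for genes with 0. DESeq2 1.42.0, other filters, scalings and cell sets, a replicate block and each library left out were alternatives, of which the limits on markers and the T antigen were chosen after seeing the data. The fits were tested on simulated data. Depth was 28512209 to 57143434 UMIs per library.

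The 45 genes and both lists were chosen with earlier results of these data known. The text names members past the threshold, at most 30 per comparison by size of change, a fixed set of well known members, and for the lists at most 5 called genes each; other members are given because the report covers all 45. Same-numbered libraries of different states had correlations of deviations from -0.0659 to 0.358, so the numbers were not taken to pair the libraries.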

Additional observations from a re-analysis of the deposited data

Results flagged for a closer look

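The change from DCIS to Tumor differed between epithelial-like and stromal-like cells for 41 genes in the edgeR test of the difference itself, with epithelial minus stromal differences on the log2 scale of -5.03 for *Top2a*, -4.76 for *Ndc80*, -4.66 for *Ccna2*, -4.59 for *Cdca8* and -4.55 for *Cdk1*. Between epithelial-like and endothelial-like cells it differed for 28 genes, with -5.38 for *Ccna2*, -4.97 for *Cdca8*, -4.87 for *Cdc20*, -4.87 for *Top2a* and -4.55 for *Ect2*. A T-antigen UMI was seen in 30.6% and 48.0% of the stromal-like and 5.13% and 0% of the endothelial-like Tumor cells. Leaving out the cells with such a UMI from every class gave 33 genes for stromal-like and 23 for endothelial-like cells. That limit also took epithelial-like cells from 2416 to 652 in Tumor 1 and from 1084 to 487 in Tumor 2. The part of the stromal-like and endothelial-like ones in the differences, apart from that of the epithelial-like ones, was therefore not tested.

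Cells outside the 4 classes also carried the 45 genes in Tumor. Myoepithelial-like cells stood at 3981 and 5709 CPM in Tumor 1 and 2, against 276 to 1154 in the 4 glands, and a T-antigen UMI was seen in 62.9% and 55.9% of their 35 and 68 Tumor cells. Their myoepithelial markers stood at 1891 and 3905 CPM in Tumor, against 7430 to 15355 in the glands, and their epithelial markers at 5662 and 1918. Own markers were highest in 2 of the 35 and 50 of the 68 cells, so in Tumor 1 the markers do not bear out the name. An unnamed cluster led by *Acan*, *Wnt10a* and *Stmn2* stood at 5727 and 7630.4, one led by *Col9a3*, *Col11a1* and *Mia* at 6763 and 7032, and one led by *Gm42418*, *Tpm1* and *Birc5* at 4925 and 8140.3. *Birc5*, *Cenpf* and *Hmgb2* are among both the 45 genes and the 10 leading genes of the last cluster, so its values are in part a description of what defines it.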

How the results depend on the processing

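All counts here are of the 45 genes called by edgeR unless named. Where a count, here or above, has no background beside it, the share of all genes called under that setting is not given. Whether such a count follows a general change in calls cannot be read from it. Without the filter on low counts, epithelial-like cells had 9, 11 and 38 genes for DCIS against Prepuberty, Tumor against DCIS and Tumor against Prepuberty, stromal-like cells 1 for the first and 43 for the last, and immune-like cells 11 and 7 for the Tumor contrasts, where 3.74% and 2.13% of all genes were called higher. The same setting gave 3 for immune-like against stromal-like cells, 8, 3 and 7 for the difference in the change from Prepuberty to DCIS (stromal-like, endothelial-like, immune-like), and 6 for that from DCIS to Tumor against immune-like cells. DESeq2 called 1, 2 and 11 in epithelial-like cells, 2 in immune-like cells for Tumor against DCIS and 13 for immune-like against endothelial-like cells. Without TMM, immune-like against stromal-like cells gave 3 and stromal-like against endothelial-like cells 0.

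With a replicate block stromal-like cells had 41 genes for Tumor against DCIS and 37 for Tumor against Prepuberty, and it changed no other count of calls by more than 1.5 times. With only the 4 libraries compared, immune-like cells had 3 and 0, and in thinned sums endothelial-like cells had 12 in both Tumor contrasts and immune-like cells 0 for Tumor against Prepuberty. Macrophage-like cells alone had 6 and 5. Without doublet removal stromal-like cells had 4 and 2, immune-like cells 2 for Tumor against Prepuberty, and the differences in the change from DCIS to Tumor 26 (stromal-like) and 11 (endothelial-like). Without integration the stromal-like counts were 0 and 0 and these differences 3 and 12. With cycle genes kept in the clustering stromal-like cells had 37 for Tumor against Prepuberty, and stromal-like against endothelial-like cells 0.

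With own markers highest stromal-like cells had 4 and 0 for Tumor against DCIS and Prepuberty, immune-like against endothelial-like cells 9, and the endothelial-like difference 13. Without T-antigen cells stromal-like cells had 14 and 6, and with both limits 2 and 0, with differences of 15 (endothelial-like, DCIS to Tumor) and 1 (immune-like, Prepuberty to DCIS). Glands alone gave 23, 34 and 2 higher genes for immune-like against stromal-like, immune-like against endothelial-like and stromal-like against endothelial-like cells. Tumor alone gave 10 genes lower in immune-like than stromal-like cells, the opposite direction, with 0 of the 5 calls kept and 2 reversed, then 0 and 2 for the other pairs, and 1 and 7 higher genes for epithelial-like against stromal-like and endothelial-like cells.

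With each library left out in turn, epithelial-like counts ran from 0 to 1 for Tumor against DCIS and 0 to 3 for Tumor against Prepuberty. Stromal-like counts ran from 0 to 41 and 0 to 18, endothelial-like from 10 to 40 and 16 to 41, and immune-like from 0 to 3 and stayed at 0. Those for immune-like against stromal-like cells ran from 1 to 7, immune-like against endothelial-like from 3 to 17 and stromal-like against endothelial-like from 0 to 2. The differences ran from 2 to 42 (stromal-like), 0 to 35 (endothelial-like) and 0 to 2 (immune-like) for DCIS to Tumor, and from 0 to 2 for Prepuberty to DCIS against immune-like cells.

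Over the pooled cells of the 2 libraries of a state, thinned to 1000 UMIs, 5 or more genes were found in 15.3%, 21.4% and 41.5% of epithelial-like cells of Prepuberty, DCIS and Tumor, 1.01%, 0.111% and 18.6% of stromal-like cells, and 1.38% and 5.86% of immune-like cells of DCIS and Tumor. Unthinned shares were 56.8%, 70.5% and 93.9% in epithelial-like, 5.75%, 1.97% and 58.7% in stromal-like, 3.52%, 3.34% and 33% in endothelial-like, and 9.14% and 18.1% in immune-like cells of DCIS and Tumor.

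Of single genes, *Hmgb2* turned to -0.21 in stromal-like cells without integration. In Tumor alone *Plk1* turned to -0.24 and -0.20 against stromal-like and endothelial-like cells and *Incenp* to -0.12 against the latter, all for epithelial-like cells. There *Cenpa* turned to -0.52 and *Pttg1* to -0.57 for immune-like against stromal-like cells, *Cenpa* to -0.34 and *Hmgb2* to -0.038 for immune-like against endothelial-like cells, and *Cks2* to -0.30 for stromal-like against endothelial-like cells. The causes were not tested, and the 34 to 78 endothelial-like Tumor cells limit what depth can show there.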
